A study of Mus musculus with 6 samples.

Results

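The 9 genes described here encode secreted guidance factors and the receptor chains that read them. They comprise 4 class 3 semaphorins (Sema3a, Sema3c, Sema3d and Sema3e), both neuropilins (Nrp1 and Nrp2) and 3 plexins (Plxna2, Plxna4 and Plxnd1). They were taken by gene symbol from the 56980 genes listed in the count matrices. The rule for them uses no measured value, but the set was chosen with earlier results of these data known. The data were single-nucleus RNA sequencing of white fat from female C57BL/6J mice, in 3 groups of 2 libraries. Inguinal fat stood for subcutaneous adipose tissue (SAT) and was taken from young mice at 2 months and from aged mice, while gonadal fat stood for visceral adipose tissue (VAT) and was taken from aged mice. The labels name no transgene, deletion or treatment. Aged mice were 24 months old by the sample labels but 26 months old by the design text and the study, and the age of the labels is used below. VAT at 2 months was not analysed here. The study's text speaks of 2 mice per age group, but the labels do not tie a library to a mouse, so every p-value measures the spread between libraries.

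Class 3 semaphorins are secreted proteins that were first known for repelling growing axons, and they also guide blood and lymph vessels and migrating immune cells. Most of them bind a neuropilin, a membrane protein with a short cytoplasmic tail, and the neuropilin then engages a plexin that carries the signal into the cell. Sema3e is an exception because it can bind Plxnd1 directly. The plexins hold an intracellular domain that switches off small GTPases of the Ras and Rap families and loosens adhesion to the matrix. Neuropilins have other partners as well, since Nrp1 is a co-receptor for Vegfa on blood vessels and Nrp2 for Vegfc on lymphatic vessels. In fat, these genes connect adipocytes, fibroblast progenitors, vessels, nerves and immune cells.

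The 4 ligand genes lie on the plus strand of chromosome 5 in a span of 5.50 Mb of the GRCm39 genome. Their order is Sema3d (12433124 to 12638929), Sema3a (13175288 to 13653578), Sema3e (14075290 to 14306719) and Sema3c (17779219 to 17935648). Nrp1 lies on chromosome 8 (129085085 to 129231082, plus strand). Nrp2 (62742444 to 62857854) and Plxna2 (194300526 to 194499177) both lie on the plus strand of chromosome 1. Plxna4 (32121203 to 32565193) and Plxnd1 (115931772 to 115972286) lie on the minus strand of chromosome 6. All 9 are annotated as protein coding in GENCODE M39. Exons made up between 3.27% (Sema3a) and 19.6% (Plxnd1) of these spans, and nuclear RNA contains unspliced transcripts. An antisense gene overlaps each of them except Plxnd1, and reads of a gene and of its antisense partner cannot be told apart here, since no source used here states that counting used strand.

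Of the 9 genes, 8 had a RefSeq promoter entry (GRCm38.p6), and each of these 8 matched GRCm39 at 1 place. Plxna4 had none. The 250 bases before the RefSeq start are shown for Sema3a and Sema3e, a ligand that fell with age in adipocytes and a neighbouring ligand that was too low in adipocytes to be tested. The windows of the other 6 genes overlap an annotated UTR and are not printed. Capitals mark matches to the motif GGGCGG on either strand, a sequence bound by Sp family factors.
Sema3a, chr5:13446501-13446750, plus strand: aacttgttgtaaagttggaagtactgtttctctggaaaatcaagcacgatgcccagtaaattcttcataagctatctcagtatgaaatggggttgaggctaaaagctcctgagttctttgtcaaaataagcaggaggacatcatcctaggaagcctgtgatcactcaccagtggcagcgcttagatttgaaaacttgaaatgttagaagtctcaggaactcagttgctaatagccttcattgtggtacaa
Sema3e, chr5:14075040-14075289, plus strand: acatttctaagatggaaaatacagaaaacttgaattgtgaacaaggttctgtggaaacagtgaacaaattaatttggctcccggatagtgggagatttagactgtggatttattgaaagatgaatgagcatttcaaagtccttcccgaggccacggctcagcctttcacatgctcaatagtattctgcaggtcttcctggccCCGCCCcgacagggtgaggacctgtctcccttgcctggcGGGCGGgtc
The Sema3a window had a GC content of 40.8% and lies inside the annotated span of the gene without touching an exon. The Sema3e window had a GC content of 48% and held 2 matches to GGGCGG, the nearer of them 3 bases before the start. The window of Sema3c, which rose where Sema3a fell, had a GC content of 78.4% and held 3 such matches. GGGCGG occurred in 32.7% of 32851 RefSeq promoters. The windows of Sema3a, Sema3c and Sema3e held no match to AGGTCA (14.0% of promoters), to the EBF1 palindrome (0.779%), CCAAT (33.8%) or to TATAAA (12.4%), searched on both strands, which says only that these letters are absent there. Among the other windows, those of Nrp1 and Plxnd1 held 1 match each to AGGTCA, and that of Sema3d held 1 to CCAAT.

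The libraries held between 8061862 and 16226690 UMIs, the molecule tags that count each captured transcript once. Filtering left 27074 nuclei, from 2490 to 5776 per library, with median depths between 1380 and 1878 UMIs. Pairs of libraries shared at most 0.482% of their barcodes. Clusters were named from fixed marker lists, the members of the pathway took no part in the clustering, and each name stands for a "-like" identity. These classes held 7217 adipocyte, 10381 immune, 1115 endothelial, 1075 fibro-adipogenic progenitor (FAP), 1901 mesothelial and 1495 epithelial nuclei, while 3379 stayed unnamed. The labels call every library adipocytes, but adipocyte nuclei made up 3.16% to 64.1% of a library and 26.7% of all nuclei. Mesothelial nuclei were found only in VAT. Scrublet called between 0.0519% and 0.562% of a library's nuclei doublets, too few for the caller to have worked, so doublets stayed in the counts. Levels are given as CPM, the UMIs of a gene per 1000000 UMIs of all genes in the nuclei of a class in a library, and only for libraries with at least 20 nuclei of the class. They are compared for 1 gene between classes, not between genes of different length.

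The ligands were highest in a pair of stromal subtypes. Sema3c led in FAPs that express Dpp4, the progenitors of the fat interstitium, at 1966 ± 882 CPM (mean ± SD, n = 4 libraries), and their lowest library (1209 CPM) exceeded the highest library of the next subtype (161 CPM). Sema3e was also highest there, at 208 ± 179 CPM (n = 4), above the range of the next subtype. Mesothelial nuclei, a class without subtypes, overlapped both ranges, with 1758 CPM of Sema3c and 140 CPM of Sema3e in the VAT library replicate 1. Sema3d peaked in lymphatic endothelial nuclei at 623 ± 110 CPM (n = 3), with 499 CPM in the lowest library against 383 CPM in the highest library of the Dpp4 progenitors. Sema3a was highest in lymphatic nuclei at 498 ± 229 CPM (n = 3), but this range overlapped that of the Col15a1 preadipocytes (160 ± 150 CPM, n = 6), the FAPs committed to the fat lineage. These orders are descriptions of the class means and were not tested.

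**Figure D1:**
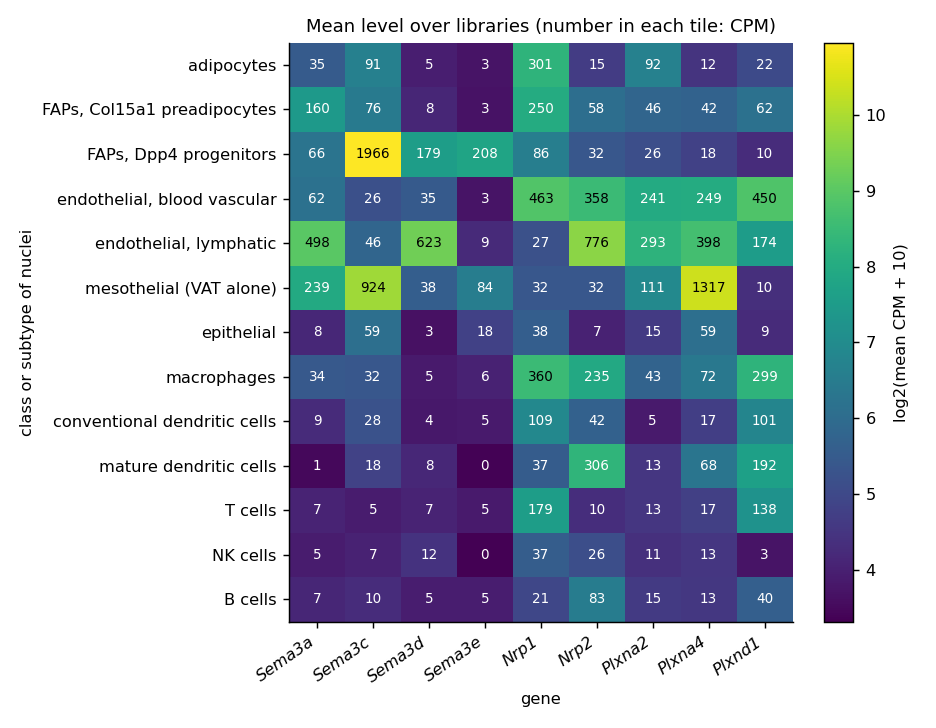
Heat map of the mean level over libraries of each of the 9 genes (columns) in each class or subtype of nuclei (rows). The number in a tile is the mean level in CPM and the colour is log2(mean CPM + 10). Sema3c and Sema3e peak in the Dpp4 progenitors, Sema3d in lymphatic nuclei and Plxna4 in mesothelial nuclei.

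The receptors were described in the same way, by class and subtype. Nrp1 was present at 364 ± 195 CPM in endothelial nuclei and 301 ± 99.1 CPM in adipocytes (n = 6 each), with overlapping ranges, and at 463 ± 147 CPM in blood vascular nuclei. Nrp2 was separated from the other whole classes in endothelial nuclei (407 ± 189 CPM against 124 ± 61.0 CPM in immune nuclei, n = 6 each), where the lymphatic subtype reached 776 ± 428 CPM (n = 3). Immune subtypes overlapped the endothelial range, whose lowest library read 239 CPM. Mature dendritic cells held 264 to 376 CPM of Nrp2 (n = 5) and macrophages 173 to 308 CPM (n = 6). Plxna2 was even across endothelial nuclei at 254 ± 45.9 CPM (n = 6), and its lowest blood vascular library (138 CPM) lay above the highest library of the next subtype, the Col15a1 preadipocytes (65.6 CPM), but adipocytes (up to 145 CPM) and mesothelial nuclei (up to 206 CPM), classes without subtypes, overlapped that range. Plxnd1, the vascular plexin, averaged 450 ± 508 CPM in blood vascular nuclei (n = 6) and 299 ± 113 CPM in macrophages (n = 6), whose ranges overlapped. Without the VAT library replicate 2 (1478 CPM) the blood vascular mean was 244 ± 75.0 CPM (n = 5), below that of macrophages. Plxna4 stood apart in mesothelial nuclei, at 1317 ± 483 CPM (n = 2) against 288 ± 127 CPM in endothelial nuclei (n = 6).

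The Dpp4 progenitors were described library by library. Sema3c stood at 1210 and 1209 CPM in the SAT libraries at 2 months (83 and 116 UMIs), at 2572 CPM in the SAT library replicate 2 at 24 months (117 UMIs) and at 2874 CPM in the VAT library replicate 1 (1020 UMIs). At least 1 UMI of Sema3c was found in 72.5%, 60.4%, 92% and 88.1% of these nuclei. After every nucleus had been thinned at random to 1000 UMIs, a depth that all nuclei reached, the shares were 57.5%, 50%, 84% and 81.4%. In T cells, which served as a low reference, the thinned shares were between 0.503% and 0.984% in the 4 libraries with such a UMI. Median depths were 1374 to 1597.5 UMIs in the progenitors and 1243.5 to 1461 in T cells. The other ligands were lower in the same nuclei, with Sema3d at 87.4, 115, 132 and 383 CPM. Sema3e read 58.3 and 52.1 CPM at 2 months against 396 CPM in SAT and 327 CPM in VAT at 24 months. Both libraries at 24 months were thus higher than both at 2 months for Sema3c and Sema3e, but each older group had only 1 library with enough of these nuclei, so no test was made.

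**Figure D2:**
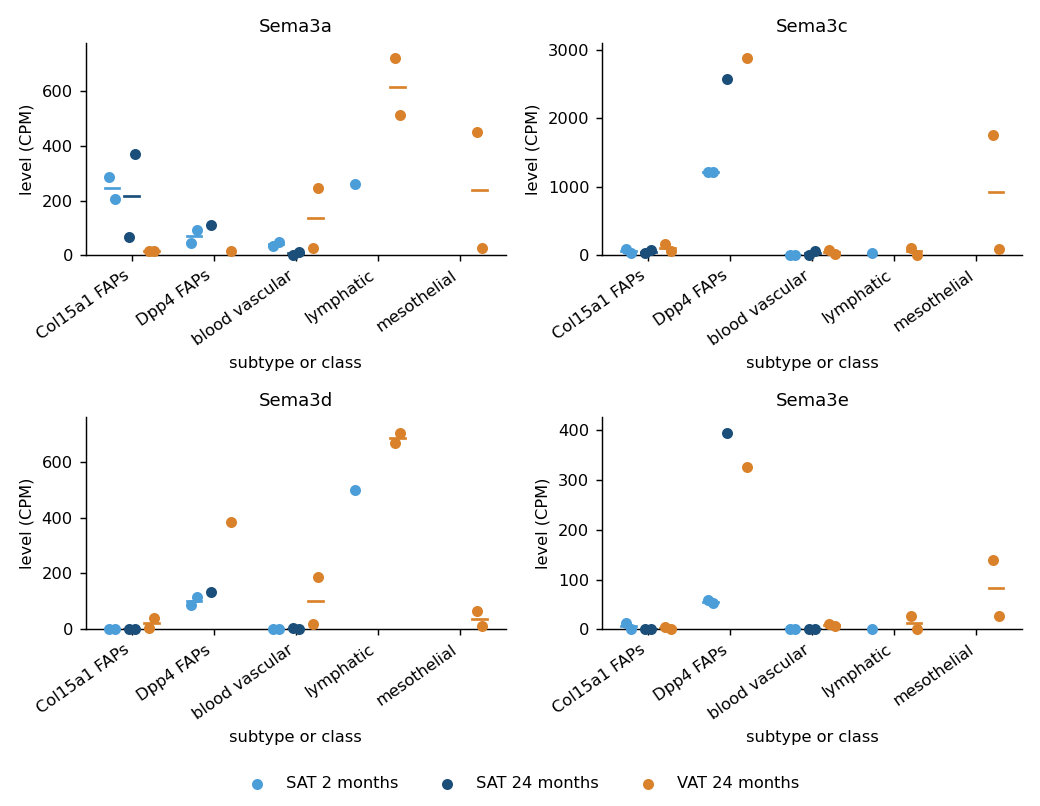
Level in CPM (vertical axes, starting at 0) of the 4 semaphorins, a panel for each gene, in the subtypes or classes named on the horizontal axes. Each point is 1 library with at least 20 such nuclei, coloured by group, and a line is the mean of a group with 2 libraries. Sema3c lies between 1209 and 2874 CPM in the Dpp4 progenitors, and Sema3d is highest in the lymphatic nuclei.

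In the whole FAP class no member was called with age, where called means an adjusted p under 0.05 in edgeR's quasi-likelihood test with Benjamini-Hochberg adjustment over all genes of that class and comparison. The test covered 8 of the 9 genes, since Plxna4 was too low, and percent called over all 6600 genes was 0. None of the 8 reached an unadjusted p under 0.05, and DESeq2 called none either. The Col15a1 preadipocytes carried Sema3a at 287 and 207 CPM in SAT at 2 months, 65.6 CPM (2 UMIs) and 369 CPM in SAT at 24 months, and 16.6 and 13.9 CPM in VAT. Sema3a was therefore lower in both VAT libraries than in all 4 SAT libraries, while the SAT groups overlapped. In the FAP class the corresponding difference between VAT and SAT at 24 months was -2.57 on the log2 scale (SE 0.71, adjusted p = 0.536 in edgeR's quasi-likelihood test), and it was not called. In this depot comparison percent called over the 6600 genes was also 0, 1 of the 8 members had an unadjusted p under 0.05, and DESeq2 called 0. Across all genes of FAPs, 683 had an unadjusted p under 0.05 with age and 365 between depots. DESeq2, which tested 23953 genes in a fit of its own, called 20 and 11. The FAP nuclei of the VAT library replicate 2 carried all 7 mesothelial markers at a summed 1430.5 CPM, against 16.1 to 224 CPM in the other 5 libraries, and their FAP markers summed to 5617 CPM against 12356 to 19156 CPM. The part of this in the depot values was not tested.

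Adipocytes of SAT changed 4 of the 7 members that could be tested. Sema3a fell with age, while Sema3c, Nrp1 and Plxna2 rose. Sema3d and Sema3e were too low in adipocytes to be tested. Percent called over all 12953 genes of this comparison was 13.9. The 1805 genes called became 682 of 13922 without the SAT library replicate 1 at 2 months and 459 of 14545 without its replicate 2.

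Sema3a read 96.8 and 86.3 CPM in the SAT libraries at 2 months (180 and 77 UMIs), 4.83 and 6.35 CPM at 24 months (7 and 35 UMIs) and 3.91 and 13.9 CPM in VAT at 24 months (31 and 6 UMIs). The groups of SAT did not overlap, and the 2-month libraries lay far above the 4 aged libraries. The change was -3.82 on the log2 scale (SE 0.43, a 14.1-fold fall; adjusted p = 2.73e-04, edgeR's quasi-likelihood test with Benjamini-Hochberg adjustment). It was called under all 15 alternatives, and with 1 library left out the change lay between -4.00 and -3.63. Some of the 15 could hardly differ. Leaving out the marker check per library changed no adipocyte sum. Removing Scrublet doublets left 2127 of 2128 adipocytes in the aged SAT library replicate 2 and took none elsewhere.

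The share of adipocytes with a Sema3a UMI moved with the level. It was 14.0% and 11.0% at 2 months, 0.886% and 1.32% in SAT at 24 months, and 1.05% and 3.75% in VAT. At 1000 UMIs per nucleus, the shares in SAT were 8.57% and 8.63% against 0.443% and 0.752%. T cells of the same 4 libraries gave thinned shares of 1.05% and 1.22% at 2 months and 0.189% and 0.503% at 24 months. The adipocyte share at 24 months was thus near that of T cells, and Sema3a was close to background there. Median depths were 1843 and 1575 UMIs per adipocyte at 2 months against 1787 and 1988.5 at 24 months, and 1452, 1247, 1461 and 1343 UMIs per T cell.

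Sema3c, known as a secreted product of adipocytes in human fat, ran the opposite way. It read 29.6 and 23.5 CPM in SAT at 2 months, 87.7 and 142 CPM in SAT at 24 months, and 102 and 159 CPM in VAT. The aged libraries were all above both young libraries. The increase was 2.26 on the log2 scale (SE 0.33, a 4.77-fold rise; adjusted p = 0.00126, edgeR's quasi-likelihood test), and all 15 alternatives called it. The share of adipocytes with a Sema3c UMI was 4.90% and 3.14% at 2 months and 12.7% and 21.9% at 24 months in SAT. After thinning it was 2.12% and 1.96% against 6.50% and 11.9%.

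The receptor chains Nrp1 and Plxna2 rose more modestly. Nrp1 read 197 and 225 CPM in SAT at 2 months, 449 and 356 CPM at 24 months, and 349 and 229 CPM in VAT. Its SAT groups did not overlap, and the change was 1.10 on the log2 scale (SE 0.29; adjusted p = 0.0288, edgeR's quasi-likelihood test). Plxna2, a receptor for several semaphorins of classes 3 and 6, read 51.1 and 51.5 CPM at 2 months, 119 and 90.6 CPM at 24 months, and 145 and 94.7 CPM in VAT. Its change was 1.18 (SE 0.29; adjusted p = 0.0216, edgeR's quasi-likelihood test). Both calls depended on single libraries. Without the SAT library replicate 1 at 2 months, Nrp1 had an adjusted p of 0.207 and Plxna2 of 0.144 in edgeR's quasi-likelihood test. Without replicate 2 at 2 months the values were 0.179 and 0.162, and without replicate 1 at 24 months Nrp1 had 0.0755. Nrp1 stayed called without replicate 2 at 24 months, and Plxna2 without either aged library.

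**Figure D3:**
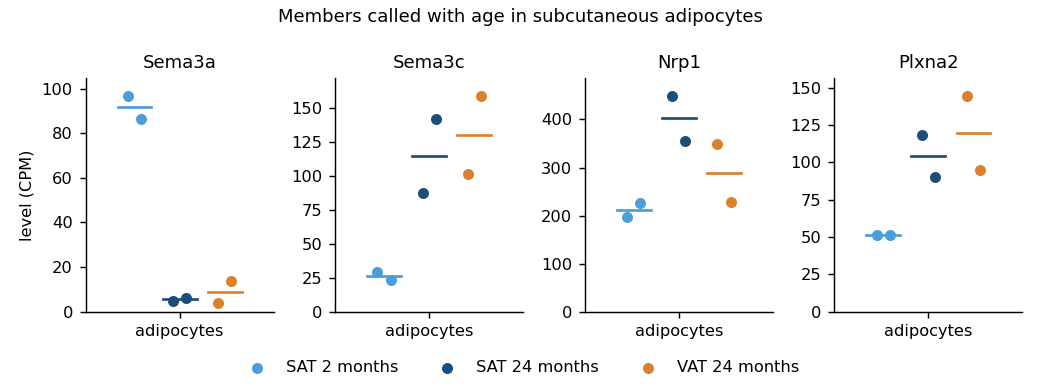
Levels in adipocytes of the 4 genes called with age in SAT, in CPM on axes that start at 0. Each point is 1 library, a line is the mean of a group, and the colour gives the group, with 2 libraries in each of young SAT, aged SAT and aged VAT. Sema3a is high in the 2 young libraries only (96.8 and 86.3 CPM), and the other 3 genes are higher in both aged SAT libraries than in both young ones.

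The remaining members were low in adipocytes and none was called. Plxna4 read 14.5 and 12.3 CPM at 2 months and 10.4 and 3.63 CPM at 24 months (log2 change -0.95, SE 0.71, adjusted p = 0.412 in edgeR's quasi-likelihood test). Plxnd1 read 12.9 and 24.6 CPM against 20.02 and 21.4 CPM, and Nrp2 read 14.5 and 22.4 CPM against 20.02 and 13.8 CPM. The groups overlapped for Plxnd1 and Nrp2. Markers of other cells in the adipocyte nuclei moved with age as well. All 7 immune markers were detected in every library, and their sum was 532 and 997 CPM at 2 months, 174 and 109 CPM at 24 months in SAT, and 74.1 and 139 CPM in VAT. The 8 adipocyte markers summed to 11473 and 10944 CPM at 2 months and 13911 and 13600 CPM at 24 months. Their part in the 4 changes was not tested.

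The changes ran through the clusters of adipocytes. The 5 clusters with at least 20 nuclei in all 4 SAT libraries are named here by a gene among their leading ones: Slc7a10, Npr3, Gm10800, Fasn and Cfd. These names are not always the top gene, and Slc7a10 was also among the leading genes of the Gm10800 cluster. Sema3a was lower in both aged libraries than in both young ones in 5 of 5 clusters, and Sema3c and Plxna2 were higher in 5 of 5. Nrp1 was higher in 4 of 5. In the Slc7a10 cluster Sema3a read 119 and 95.3 CPM at 2 months against 6.01 and 12.3 CPM at 24 months. In the cluster named by Npr3, the clearance receptor for natriuretic peptides, it read 87.1 and 74.7 CPM against 1.45 and 3.16 CPM. Sema3c differed between clusters within a library, with 168 CPM in the Npr3 cluster and 62.4 CPM in the Fasn cluster of the same aged SAT library (replicate 2). In the Cfd cluster, where the Nrp1 ranges overlapped, it read 152 and 247 CPM at 2 months and 234 and 270 CPM at 24 months. Sema3a counts were small in the Fasn and Cfd clusters, where no UMI was found in the aged SAT library replicate 1 of the first (up to 29.0 CPM at 3 UMIs) or in either aged SAT library of the second (up to 35.1 and 3.81 CPM), against at least 73.5 and 37.0 CPM in young SAT. These clusters come from the same libraries and are not replicates.

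**Figure D4:**
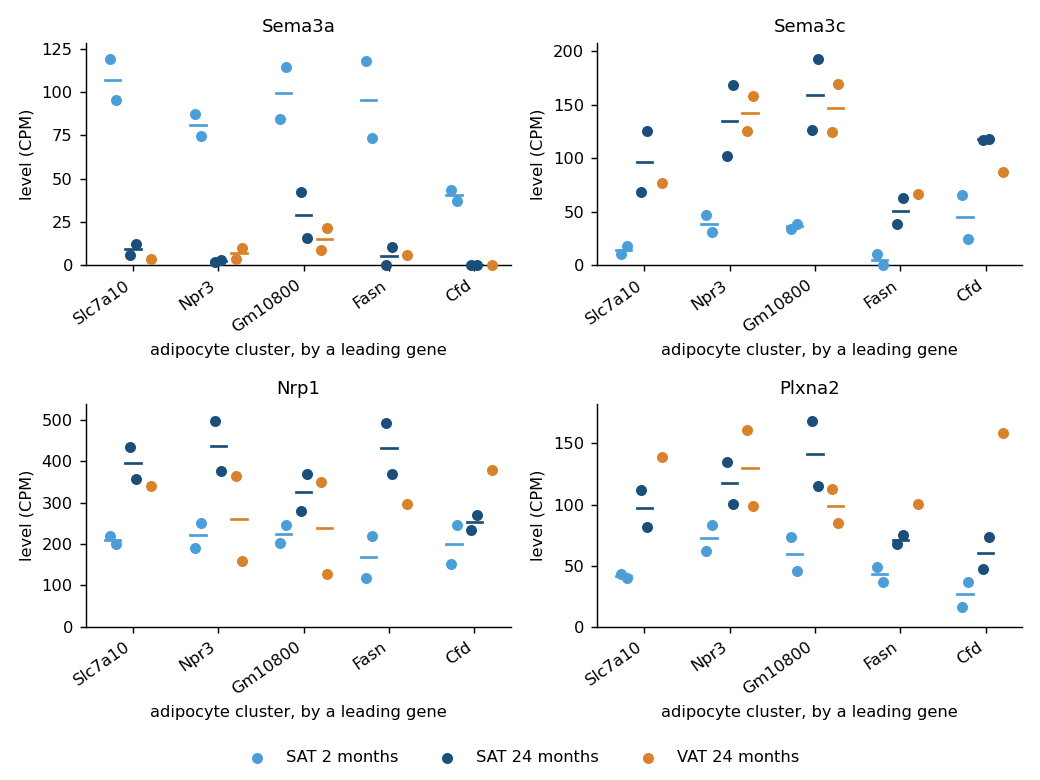
Levels of Sema3a, Sema3c, Nrp1 and Plxna2 in 5 adipocyte clusters, named on the horizontal axes by a leading gene, in CPM on axes that start at 0. Each point is 1 library with at least 20 nuclei of the cluster, coloured by group, and a line is the mean of a group with 2 libraries. In all 5 clusters Sema3a is lower, and Sema3c and Plxna2 are higher, in both aged SAT libraries than in both young ones.

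Aged VAT adipocytes were compared with aged SAT adipocytes for the same 7 members. None was called with edgeR's quasi-likelihood test or with DESeq2, none had an unadjusted p under 0.05, and percent called over all genes was 0.131. The largest differences were those of Plxna4 (0.97 on the log2 scale, SE 0.75) and Nrp1 (-0.43, SE 0.29). Sema3a differed by -0.09 (SE 0.50) and Sema3c by 0.14 (SE 0.29). The depot comparison shares the aged SAT libraries with the age comparison. A p that misses the threshold does not show that the depots were alike.

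T cells of SAT carried more Plxnd1 and Nrp1 with age. Plxnd1 read 51.8 and 46.4 CPM at 2 months (128 and 158 UMIs) and 187 and 333 CPM at 24 months (162 and 100 UMIs), with 72.1 CPM in the VAT library replicate 2. The SAT groups did not overlap and the VAT library lay between them. The change in SAT was 2.39 on the log2 scale (SE 0.24, 5.22-fold; adjusted p = 8.53e-07, edgeR's quasi-likelihood test), and all 15 alternatives called it. Nrp1, which marks thymic regulatory T cells, read 101 and 92.0 CPM at 2 months and 223 and 220 CPM at 24 months, with 261 CPM in VAT. Its change was 1.26 (SE 0.20; adjusted p = 1.47e-04, edgeR's quasi-likelihood test), again called under all 15 alternatives. Of the 9 members 6 could be tested in T cells and 2 were called, beside a percent called of 12.6 over all 12590 genes. The VAT library replicate 1 held 10 T cells, so no depot comparison was made.

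The T cell populations differed between the ages. A cluster led by Scart1 and Il23r, genes known from gamma-delta T cells, made up 11.6% and 10.5% of T cells in SAT at 2 months, 56.8% and 60.8% at 24 months, and 29.4% in VAT. Plxnd1 was highest in this cluster in every library. Within it Plxnd1 read 284 and 210 CPM at 2 months, 287 and 467 CPM at 24 months, and 195 CPM in VAT, so both aged SAT libraries lay above the young ones, replicate 1 by a small margin. Outside the cluster it read 17.2 and 24.1 CPM at 2 months against 53.9 and 114 CPM at 24 months (37, 72, 20 and 13 UMIs), and 26.5 CPM in VAT. Of the 3 T cell clusters with at least 20 nuclei in all 4 SAT libraries, 2 were higher in Plxnd1 in both aged libraries than in both young ones. The third, led by Cd8a, held 14.7 and 8.69 CPM at 2 months and no Plxnd1 UMI in its 38 and 20 aged nuclei, which allows up to 56.4 and 119 CPM (3 UMIs), so a difference was not detectable there. The share of the Scart1 and Il23r cluster and the level outside it both moved with the class value, and neither was tested by itself.

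Of the same 3 clusters, Nrp1 was higher in both aged SAT libraries than in both young ones in 2 and lower in 0. In the Scart1 and Il23r cluster it read 99.8 and 97.5 CPM at 2 months, 241 and 327 CPM at 24 months, and 329 CPM in VAT, with no overlap between the SAT groups. In the remaining T cells it read 101 and 91.2 CPM at 2 months but 199 CPM and 43.8 CPM (5 UMIs) at 24 months, so these groups overlapped. The other cluster with both aged libraries higher was that led by Cd8a, at 29.4 and 25.1 CPM against 37.6 and 39.8 CPM, on only 2 and 1 aged UMIs. In the third, with Cd4 among its leading genes, the aged libraries lay apart, at 166 and 17.5 CPM (27 and 1 UMIs) against 40.6 and 54.2 CPM. A further cluster had Foxp3, the master factor of regulatory T cells, among its leading genes. It held 294 and 259 CPM of Nrp1 at 2 months, 310 CPM in the aged SAT library replicate 1 and 419 CPM in VAT. Nuclei with both Nrp1 and Plxnd1 were 0.351% and 0.294% of T cells at 2 months and 3.41% and 4.02% at 24 months, where the product of the single shares was 0.262%, 0.227%, 2.24% and 2.59%.

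The share of T cells with a Plxnd1 UMI was 5.83% and 4.87% at 2 months, 21.0% and 26.6% at 24 months, and 7.66% in VAT. At 1000 UMIs it was 3.65%, 3.53%, 15.2%, 19.1% and 6.39% in the same order. NK cells of both young libraries, which served as the low reference, gave thinned shares of 1.18% and 0.658%, from 1 UMI each, at median depths of 1435 and 1260 UMIs. Markers of T cells were all detected and summed to 6138 and 6240 CPM at 2 months and 5414 and 5331 CPM at 24 months. Macrophages carry Plxnd1 too, and in T cell nuclei the 7 macrophage markers summed to 91.1 and 93.4 CPM at 2 months and 38.1 and 69.9 CPM at 24 months, with 6 of the 7 detected in each aged library. Their part in the Plxnd1 values was not tested.

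**Figure D5:**
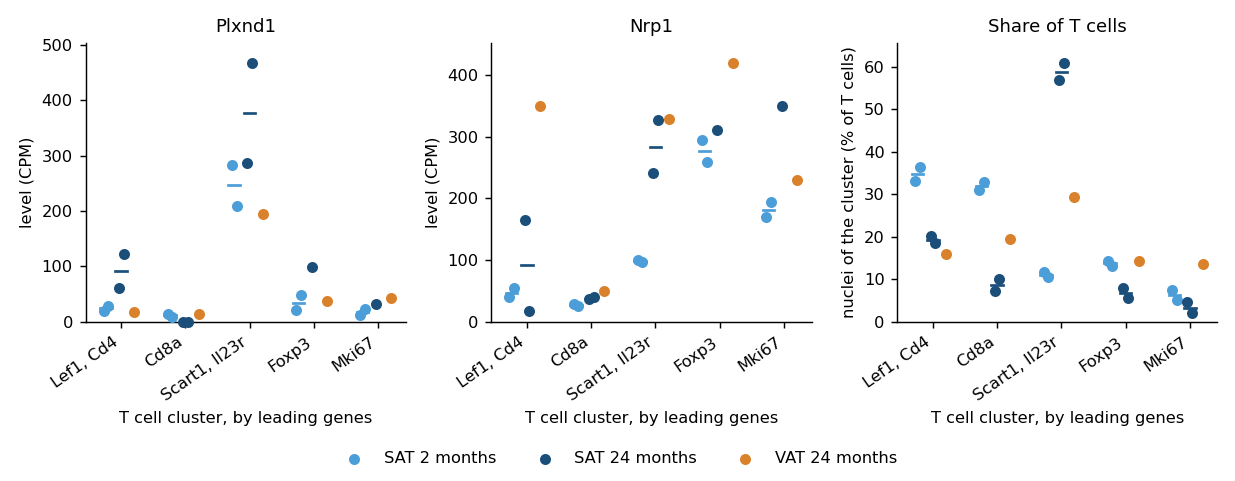
Plxnd1 and Nrp1 levels (CPM, axes starting at 0) and the share of T cells (%) in each T cell cluster, named by its leading genes. Each point is 1 library, coloured by group, a line is the mean of a group with 2 libraries, and levels are shown where the library had at least 20 nuclei of the cluster. Plxnd1 is highest in the Scart1 and Il23r cluster, whose share is 11.6% and 10.5% in the young SAT libraries and 56.8% and 60.8% in the aged ones.

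Macrophages carried both neuropilins and Plxnd1, and no member was called in them with age. The test covered 7 of the 9 genes, 4 of these had an unadjusted p under 0.05, DESeq2 called 0, and percent called was 0.0233. Over all 8589 genes, 1054 had an unadjusted p under 0.05, and DESeq2 called 37 of the 25873 it tested. The ligands Sema3a and Sema3c were among the members not called. Sema3a read 89.5 and 54.2 CPM in SAT at 2 months and 23.7 and 7.72 CPM at 24 months, and the groups did not overlap (-2.45 on the log2 scale, SE 0.72, adjusted p = 0.225 in edgeR's quasi-likelihood test). Sema3c read 9.59 and 6.51 CPM against 47.4 and 54.1 CPM, again with no overlap (2.76, SE 0.81, adjusted p = 0.225 in edgeR's quasi-likelihood test). The aged SAT library replicate 1 held only 3 UMIs of Sema3a, and the young libraries held 3 UMIs of Sema3c each. Nrp1 read 214 and 232 CPM in SAT at 2 months, 435 and 440 CPM at 24 months, and 511 and 329 CPM in VAT. The SAT groups did not overlap (log2 change 1.05, SE 0.39, adjusted p = 0.314 in edgeR's quasi-likelihood test). Plxna4 read 16.0 and 28.2 CPM against 94.9 and 79.2 CPM (1.98, SE 0.48, adjusted p = 0.185 in edgeR's quasi-likelihood test), and 94.0 and 122 CPM in VAT. Plxnd1 was at 387 and 479 CPM in young SAT and at 245 and 278 CPM in aged SAT (-0.63, SE 0.36, adjusted p = 0.504 in edgeR's quasi-likelihood test). The adipocyte markers in macrophage nuclei summed to 917 and 740 CPM at 2 months and 1344 and 3025 CPM at 24 months in SAT, all 8 being detected, and adipocytes carry Nrp1 and Sema3c too. Their part was not tested.

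The class was held by different clusters at the 2 ages. The cluster led by Spp1 and Gpnmb made up 43.5% and 49.6% of macrophages in young SAT and 26.1% and 16.8% in aged SAT, and the larger of the clusters led by Mrc1 and F13a1 made up 31.0% and 22.6% against 36.2% and 53.4%. Plxnd1 read 462 and 567 CPM in the Spp1 and Gpnmb cluster of young SAT and 283 CPM in that of the aged library replicate 2, the other having too few nuclei. The part of these shares in the class values was not tested. The Mrc1 and F13a1 cluster, led by genes known from resident macrophages, held Nrp1 at 358, 319, 805, 581, 692 and 596 CPM in the 6 libraries, ordered as young SAT, aged SAT and VAT with replicate 1 before 2. The cluster led by Lyz1, Fn1 and Ccr2, genes known from monocytes, held Plxnd1 at 850 CPM in young SAT (replicate 2), 742 CPM in aged SAT (replicate 2) and 764 and 464 CPM in VAT. In the Mrc1 and F13a1 cluster Plxnd1 was at 269 and 189 CPM in young SAT and 146 and 215 CPM in aged SAT. Between depots at 24 months, 0 of the 7 members tested in macrophages were called or had an unadjusted p under 0.05, DESeq2 called 0, and percent called was 0.0466.

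Neuropilin levels differed between the remaining immune subtypes. Mature dendritic cells, which migrate to lymph nodes and use Nrp2 on that route, held it at 289 and 279 CPM in young SAT, 321 and 376 CPM in aged SAT and 264 CPM in VAT. B cells held Nrp2 at 17.0 and 9.95 CPM in young SAT, 71.9 and 181 CPM in aged SAT and 135 CPM in VAT, and the aged libraries were all higher. Plasmacytoid dendritic cells, known for Nrp1, held it at 103 and 117 CPM in the 2 young SAT libraries. Over the whole immune class all 9 members were tested and none was called with age, while 6 had an unadjusted p under 0.05 and DESeq2 called 0. Percent called was 0 over 14297 genes, of which 1253 had an unadjusted p under 0.05, while DESeq2 called 79 of the 37330 genes it tested. Between depots, 0 of 9 were called, 3 had an unadjusted p under 0.05 and DESeq2 called 0. Percent called was 0 here as well, with 1273 genes at an unadjusted p under 0.05, and DESeq2 called 211.

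Endothelial nuclei gave large but unstable differences. With age in SAT 0 of the 8 members tested were called, 3 had an unadjusted p under 0.05, DESeq2 called 0, and percent called was 0.0265 over 7542 genes, of which 894 had an unadjusted p under 0.05. Sema3a read 132 and 114 CPM at 2 months and 24.6 and 12.7 CPM at 24 months, with no overlap (-2.58, SE 0.75, adjusted p = 0.260 in edgeR's quasi-likelihood test). Nrp1, a receptor for it, read 213 and 156 CPM at 2 months and 639 and 555 CPM at 24 months (1.95 on the log2 scale, SE 0.53, adjusted p = 0.243 in edgeR's quasi-likelihood test). Sema3d, a ligand of lymphatic nuclei here, read 213 and 525 CPM against 98.3 and 9.17 CPM (-2.81, SE 1.03, adjusted p = 0.369 in edgeR's quasi-likelihood test). The lymphatic markers of the class summed to 2713 and 1618 CPM at 2 months, 202 and 284 CPM at 24 months in SAT, and 3019 and 7843 CPM in VAT, with 5 of 7 markers detected in the aged SAT library replicate 1 and all 7 elsewhere. Sema3d and Sema3a were both lower in the aged SAT libraries, where these markers were lowest. Of the 21 Sema3a UMIs of young SAT endothelial nuclei, 16 came from lymphatic and 4 from blood vascular nuclei, against 5 and 17 of 23 in aged SAT and 110 and 48 of 158 in VAT. Nrp1 averaged 27.4 CPM in lymphatic nuclei (n = 3) and 463 CPM in blood vascular nuclei (n = 6). The part of lymphatic nuclei in the values of Sema3a, Sema3d and Nrp1 was not tested, for age or depot. Between depots, 0 of 8 were called, 2 had an unadjusted p under 0.05, DESeq2 called 1 (Sema3a), and percent called was 0.0265. Over all 7542 genes 359 had an unadjusted p under 0.05 here, and DESeq2 called 21 of the 23961 it tested. Sema3a read 24.6 and 12.7 CPM in aged SAT and 105 and 370 CPM in VAT (3.66, SE 0.71, adjusted p = 0.210 in edgeR's quasi-likelihood test).

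Within the endothelial subtypes, blood vascular nuclei held Nrp1 at 371 and 268 CPM in young SAT, 675 and 582 CPM in aged SAT and 424 and 455 CPM in VAT, with no overlap between the groups, which were not tested in this subtype. Plxnd1, which receives Sema3e on growing vessels, was at 195 and 243 CPM in young SAT, 373 and 190 CPM in aged SAT, and 219 and 1478 CPM in VAT. The VAT library replicate 2 stood far above the others. Its blood vascular nuclei also carried 6 of 8 ovary or oviduct markers at a summed 694 CPM, against 3.97 to 24.3 CPM in the other 5 libraries. The young SAT libraries differed as well, since their blood vascular nuclei carried 5 of 6 lymph node markers at a summed 18535 and 7376 CPM, against 7.93 to 132 CPM elsewhere, and held 30 and 25 nuclei. The part of either in the values of Plxnd1 and Nrp1 was not tested. Lymphatic nuclei, counted in 3 libraries, held Sema3d at 499, 667 and 704 CPM, Nrp2 at 289, 1093 and 945 CPM and Plxna4 at 315, 453 and 426 CPM (young SAT replicate 1, VAT replicates 1 and 2).

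Epithelial nuclei, which carried mammary gland markers in SAT, had 8 members tested and 3 called with age, beside a percent called of 7.89 over 13159 genes. Nrp1 read 8.41 and 14.2 CPM at 2 months and 31.6 and 34.9 CPM at 24 months (1.60 on the log2 scale, SE 0.39, adjusted p = 0.0206 in edgeR's quasi-likelihood test). Sema3e read 2.24 and 1.90 CPM against 36.1 and 6.97 CPM (3.23, SE 0.83, adjusted p = 0.0267 in edgeR's quasi-likelihood test). The aged libraries of Sema3e differed widely. T cells held 0 to 10.3 CPM of Sema3e (n = 5), a range that includes both young epithelial libraries and the lower aged one. B cells, the immune subtype lowest in Nrp1, held 14.4 to 33.7 CPM of it (n = 5). The young epithelial Nrp1 values lay below that range and the aged ones near its upper end. Sema3a read 6.73 and 12.3 CPM against 0.903 and 0.581 CPM (-3.52, SE 1.00, adjusted p = 0.0435 in edgeR's quasi-likelihood test), on 12, 13, 1 and 1 UMIs. T cells of the same libraries, taken above as the background of Sema3a, read 10.9 and 10.9 CPM at 2 months and 2.31 and 3.33 CPM at 24 months, so the epithelial level was near background at 2 months and below it at 24 months, and this call is not read as expression or its loss in epithelial nuclei. DESeq2 called neither Nrp1 (adjusted p = 0.461) nor Sema3e (0.163) and gave no adjusted value for Sema3a. In nuclei with over 2000 UMIs only Nrp1 of the 3 could be tested, and it was not called (adjusted p = 0.0534 in edgeR's quasi-likelihood test). Nrp1 was called in 11 of 15 alternatives, Sema3e in 8 of 12 and Sema3a in 5 of 11. Of the 7 mammary markers 6 were detected in each of these libraries, and they summed to 3537 and 2703 CPM at 2 months and 4721 and 3689 CPM at 24 months.

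Mesothelial nuclei, the lining cells of the visceral fat pad, held Plxna4 at 975 CPM in the VAT library replicate 1 (242 nuclei, 439 UMIs) and 1659 CPM in replicate 2 (1659 nuclei, 6586 UMIs). At least 1 Plxna4 UMI was found in 66.1% and 88.1% of these nuclei, and after thinning in 51.2% and 71.9%, against 4.20% of T cells in the VAT library replicate 2. Median depths were 1524.5 and 1917 UMIs in mesothelial nuclei and 1243.5 in those T cells. Of all Plxna4 UMIs in VAT 82.4% lay in mesothelial nuclei, which were 20.002% of the nuclei there. The ligands differed between the replicates, with Sema3c at 1758 and 91.2 CPM, Sema3a at 451 and 27.2 CPM and Sema3e at 140 and 27.5 CPM. Plxna2 went the other way at 15.6 and 206 CPM. The FAP markers in the same nuclei summed to 5419 and 920 CPM and the mesothelial markers to 4162 and 3648 CPM, and their part in the ligand values was not tested. No mesothelial comparison between groups was possible, because the nuclei that clustered with them in SAT did not carry mesothelial markers.

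Over all nuclei of a library, levels mix the gene's level in each class with the share of that class, and these cannot be told apart in the sums. All 9 members were tested and 0 were called with age, with 3 at an unadjusted p under 0.05 and 1 called by DESeq2 (Plxna2). Percent called was 0 over 21729 genes, of which 1794 had an unadjusted p under 0.05, while DESeq2 called 266 of the 41598 genes it tested. Between depots 0 were called, 5 had an unadjusted p under 0.05, DESeq2 called 2 (Plxna4 and Sema3e), and percent called was 0.0138. Over all genes 1657 had an unadjusted p under 0.05 in this comparison, and DESeq2 called 507. Plxna4 read 15.4 and 15.2 CPM in young SAT, 40.1 and 22.1 CPM in aged SAT, and 65.1 and 767 CPM in VAT, where replicate 2 held most of the mesothelial nuclei.

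Of the other 48 genes listed for the pathway (other class 3 semaphorins, other plexins, semaphorins of classes 4 to 7, other neuropilin partners and intracellular transducers), 35 were tested in adipocytes and 5 were called with age. This share stood beside a percent called of 13.9 over all genes, and the median change of the list was 0.02 on the log2 scale against -0.00344 over all genes. Vegfc, the lymphatic growth factor that binds Nrp2, rose by 2.77 (SE 0.52, adjusted p = 0.00493 in edgeR's quasi-likelihood test). Gipc1, an adaptor for the neuropilin tail, rose by 2.24 (SE 0.67, adjusted p = 0.0439 in edgeR's quasi-likelihood test). Chl1, an adhesion molecule that partners Nrp1 in the Sema3a receptor, fell by 2.66 (SE 0.53, adjusted p = 0.00743 in edgeR's quasi-likelihood test). The kinase Fyn, which acts downstream of plexins, fell by 2.39 and Sema4d, a class 4 semaphorin of lymphocytes, by 2.40 (adjusted p = 0.00929 and 0.0330 in edgeR's quasi-likelihood test). Fyn and Sema4d are abundant in T cells, whose 8 markers in the adipocyte nuclei summed to 266 and 488 CPM at 2 months and 58.0 and 31.4 CPM at 24 months. Their part was not tested.

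In T cells 35 of the 48 listed genes were tested and 8 were called, all of them higher with age, against a percent called of 12.6 over all genes. The median of the list was 0.37 on the log2 scale and that of all genes -0.03. They were Sema6c (2.50), Crmp1 (2.08), Farp1 (1.497), L1cam (1.21), Mical2 (1.19), Sema6d (1.10), Gsk3b (0.82) and Sema4f (0.79), with adjusted p from 8.62e-06 (Crmp1) to 0.0376 (Sema4f) in edgeR's quasi-likelihood test. Crmp1, Farp1, Mical2 and Gsk3b encode cytoplasmic proteins that act between plexins and the cytoskeleton, and L1cam is an adhesion partner of Nrp1. DESeq2 called 5 genes of the list. The cluster led by Scart1 and Il23r made up 11.6% and 10.5% of T cells in the young libraries and 56.8% and 60.8% in the aged ones, and its part in these 8 changes was not tested. Over all genes the 1583 calls in T cells became 855 of 12103 without the SAT library replicate 1 at 2 months, 787 of 12110 without its replicate 2, and 897 of 15066 without the SAT library replicate 1 at 24 months. In epithelial nuclei 37 were tested and 4 were called, beside a percent called of 7.89 over all genes, with changes of 1.01 in Plxnb1, -1.55 in Fyn, -1.53 in Sema6a and -0.89 in Sema4d, while DESeq2 called 0. No gene of the list was called by edgeR's quasi-likelihood test in FAPs, endothelial, immune or macrophage nuclei, over all nuclei, or between depots in any class tested. At an unadjusted p under 0.05, these tests held from 0 (macrophages between depots) to 8 (immune nuclei with age) genes of the list, and DESeq2 called 1 each in immune nuclei between depots and in all nuclei with age.

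The genes whose pattern over 14 classes was most like that of a member were found by Pearson correlation of the class means of log2(CPM + 10) among 13006 genes. The classes share libraries and depth, so these values are descriptions. Sema3c ran closest to Sema3b (r = 0.952), another class 3 semaphorin, then to Epdr1 (0.946) and Gm12381 (0.943). Sema3e ran with Gm12381 (0.955), Dmkn (0.949) and Fgf18 (0.935), Sema3d with Rspo3 (0.935), Jam3 (0.886) and Hoxd9 (0.883), and Sema3a with AI838599 (0.942), Layn (0.939) and Meis2 (0.938). Among the receptors, Plxna4 ran with Gpm6a (0.935), Stmn2 (0.919) and Gmpr (0.911), and Plxna2 with Stard13 (0.935), Arhgap23 (0.923) and Cavin2 (0.921). Nrp1 ran with ENSMUSG00000121092 (0.854), Cfd (0.789) and Lpl (0.787), the latter both adipocyte genes, and Nrp2 with Fcho2 (0.838), 2810025M15Rik (0.807) and Arhgap31 (0.804). Plxnd1 ran with Nrp2 (0.794), Map4 (0.782) and Arhgap31 (0.782). Between members, the closest pairs were Sema3c with Sema3e (r = 0.925) and Nrp2 with Plxnd1 (0.794).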

How the data were processed

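Single-nucleus RNA-seq of 6 libraries was used (Singleron GEXSCOPE kit per the labels, although a description field names 10x Genomics). The authors deposited UMI counts without normalization, made with Celescope on GRCm39. The Celescope version and the annotation release are not given in the sources used here. The filter asked for more than 500 genes and 1000 UMIs and less than 15% mitochondrial UMIs in a nucleus, which left 27074. They were clustered on 1000 variable genes, from which the members and pathway genes were left out, with 30 principal components, an own implementation of Harmony, 20 neighbours and Leiden at a resolution of 2.0 (1.0 within classes), with seed 1. Marker lists named 87.5% of the nuclei. The naming rule, and a check of the class markers within each library, were changed after clusters and levels had been seen, while the marker lists were not. The members and lists were chosen with earlier results of these data known.

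Counts were summed per library and class (at least 20 nuclei) and tested with edgeR's quasi-likelihood test (TMM scaling, filterByExpr, 3 groups in 1 fit, p-values two-sided and adjusted by Benjamini-Hochberg per class and comparison). The SE is the absolute log2 change divided by the square root of F. Seurat's FindMarkers, which the study used, was not applied because it takes nuclei as replicates. The text names all 9 members, the pathway genes called (at most 10 per comparison) and the 3 genes most like each member among those at 20 CPM or more in at least 1 class. Levels carry counting error only within a library, and a level of 0 allows up to 3 UMIs.

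The test was also run on simulated counts, and the outcome of that run is not reported here. The tools were edgeR 4.0.16 and DESeq2 1.42.0 in R 4.3.3, and scanpy 1.11.5, leidenalg 0.10.2 and scikit-learn 1.9.0 in Python 3.11.15. The alternatives were DESeq2, library size scaling, no filter on low counts, the 4 libraries of a comparison alone, a replicate block, each library left out, Scrublet doublets removed, nuclei with over 2000 UMIs, no Harmony and a resolution of 1.0. Added after the data were seen were removal of the 5% of nuclei with the highest Scrublet score, no marker check per library and crossed replicate numbers.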

Additional observations from a re-analysis of the deposited data

Results flagged for a closer look

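The difference with age in SAT had opposite signs in different classes for 4 receptors, with no overlap between the young and aged libraries of a class. These receptors were picked for their opposite signs from the members tested in several classes. With 2 libraries per group such separation can arise by chance, and its share over all genes was not counted. The differences between classes were not tested, so opposite regulation is not concluded from them. Only Plxna2 in adipocytes and Plxnd1 in T cells passed the threshold in edgeR's quasi-likelihood test. Plxna2 gave 1.18 on the log2 scale in adipocytes (adjusted p = 0.0216, edgeR's quasi-likelihood test), 1.18 in T cells (0.276) and 1.37 in epithelial nuclei (0.282), against -0.58 in macrophages (0.717). Of the 3 T cell clusters with enough nuclei in all 4 SAT libraries, 0 were higher in Plxna2 in both aged libraries than in both young ones and 1 was lower. The cluster led by Scart1 and Il23r held 11.6% and 10.5% of the young T cells and 56.8% and 60.8% of the aged ones, and its part in the class values of T cells was not tested. Plxnd1 gave 2.39 in T cells (adjusted p = 8.53e-07, edgeR's quasi-likelihood test) and 1.02 in endothelial nuclei (0.579), against -0.63 in macrophages (0.504). Lymphatic nuclei were 22 of 54 and 18 of 43 young SAT endothelial nuclei, against 10 of 96 and 11 of 545 aged ones. Within blood vascular nuclei the Plxnd1 ranges overlapped. The Spp1 and Gpnmb cluster held 43.5% and 49.6% of young SAT macrophages and 26.1% and 16.8% of aged ones. The part of these shares in the Plxnd1 values was not tested. Nrp2 gave 1.52 in FAPs (adjusted p = 0.554, edgeR's quasi-likelihood test), 0.64 in macrophages (0.498) and 1.24 in epithelial nuclei (0.329), against -0.76 in T cells (0.520). Plxna4 gave 1.98 in macrophages (adjusted p = 0.185, edgeR's quasi-likelihood test) and 0.54 in T cells (0.585), against -0.95 in adipocytes (0.412) and -1.17 in epithelial nuclei (0.518).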

How the results depend on the processing

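With 2 libraries per group, a change that missed the threshold may still exist. No fold change of a called member reversed under an alternative, and of 128 such values 108 stayed on the same side of the threshold and 20 lost it. In adipocytes and T cells Sema3a, Sema3c, Plxnd1 and Nrp1 (in T cells) were called throughout. Some alternatives could hardly change these calls. In SAT adipocytes and T cells, leaving out the marker check changed no sum and removing Scrublet doublets almost none. Leaving out 1 library gave 2 to 4 called members in SAT adipocytes, 0 to 1 in epithelial nuclei, 0 to 1 in SAT endothelial nuclei, 0 to 2 in VAT endothelial nuclei, 0 to 4 in VAT FAPs, 0 to 1 in VAT over all nuclei, and 2 throughout in T cells. The 4 in FAPs came without the VAT library replicate 1 (Plxna4, Sema3a, Sema3c and Sema3e), and 1 (Sema3a) came without VAT replicate 2, where the calls over all genes went from 0 to 407 of 8091 and to 32 of 7884. Over all genes the calls also went from 2 to 161 without the aged SAT library replicate 1 in SAT endothelial nuclei, from 2 to 38 without that library and 90 without VAT replicate 1 in VAT endothelial nuclei, from 3 to 952 and 374 without VAT replicates 1 and 2 over all nuclei, from 4 to 116 and 27 in VAT macrophages and from 0 to 12 and 186 in VAT immune nuclei without the same libraries, from 17 to 91 without the aged SAT library replicate 1 and 58 without VAT replicate 2 in VAT adipocytes, and from 1038 to 428 without the SAT library replicate 2 at 2 months in epithelial nuclei. The arms left with 1 library were assumed to vary like the other groups. DESeq2 gave 0 in epithelial nuclei, 1 in VAT endothelial nuclei (Sema3a), 1 in SAT (Plxna2) and 2 in VAT (Plxna4 and Sema3e) over all nuclei. Without the filter on low counts there were 2 in VAT FAPs (Plxna4 and Sema3a), 1 in SAT endothelial (Sema3d), 2 in VAT endothelial (Sema3a and Sema3d), 3 in SAT immune (Nrp1, Nrp2 and Plxna4) and 1 in SAT macrophage nuclei (Sema3c), and over all nuclei 2 in SAT (Nrp1 and Plxna2) and 2 in VAT (Plxna4 and Sema3d). Over all genes that setting called 105 instead of 0 in VAT FAPs, 218 and 73 instead of 2 each in endothelial nuclei, 707 of 37330 instead of 0 in SAT immune nuclei, 288 of 25873 instead of 2 in SAT macrophages, and 953 and 1034 instead of 0 and 3 over all nuclei. The 4 libraries of the comparison alone gave 2 in SAT macrophages (Plxna4 and Sema3c) and 1 in epithelial nuclei (Nrp1), with 279 of 7914 and 968 of 12054 genes called against 2 and 1038. Nuclei with over 2000 UMIs gave 0 in epithelial nuclei, and a resolution of 1.0 gave 1 there (Nrp1). Plxna2 in adipocytes had an adjusted p of 0.0872 in edgeR's quasi-likelihood test in nuclei with over 2000 UMIs. Without the marker check per library, Plxna4 in mesothelial nuclei averaged 443 CPM over 6 libraries. The cause of these shifts was not tested.

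Library size scaling moved the balance of calls over all genes in SAT adipocytes. The 1805 calls held 847 increases and 958 decreases, against 628 and 1278 with that scaling, which moved the median of all genes to -0.18. DESeq2, which also differs in its test and filter, gave 738 increases and 506 decreases with a median of -0.17. The directions of Sema3a, Sema3c, Nrp1 and Plxna2 held under both. In T cells the calls held 963 increases and 620 decreases, against 839 and 789 with library size scaling, which moved the median of all genes to -0.11 from -0.03. Over all genes DESeq2 further gave 723 calls in T cells, 216 in epithelial, 61 and 21 in endothelial nuclei (age and depot), 37 with age in macrophages, and 266 with age and 507 between depots over all nuclei, while library size scaling gave 16 and 7 in endothelial nuclei.

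Libraries with the same replicate number were compared by the correlation of their deviations from the group means. It lay between -0.0854 and 0.0863 in adipocytes and between -0.476 and 0.182 over all nuclei. These values did not show that the numbers pair the libraries, but with 2 libraries per group they cannot exclude it. A replicate block, used as if the numbers paired the libraries, changed the call of 1 member, Sema3a in epithelial nuclei (-3.58 on the log2 scale, adjusted p = 0.0511 in edgeR's quasi-likelihood test), and no other. Over all genes it gave 2101 calls in SAT adipocytes, 32 instead of 17 between depots in adipocytes, 1596 in T cells and 1006 in epithelial nuclei. With the numbers crossed between depots, the block gave 0 calls in adipocytes and 9 over all nuclei. No depot comparison could be made in T cell or epithelial nuclei, nor any mesothelial one, since a group had fewer than 2 libraries with enough nuclei.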
